A study of Mus musculus with 8 samples.

Results

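The genes described here are 10 markers of macrophages and monocytes, the phagocytes of the innate immune system, in pressure-loaded mouse ventricles. Probe sets annotated to exactly 1 gene symbol were matched to the listed symbols, and where a gene had several, the brightest on average across the 8 arrays represented it. The kept probe sets were 1449164_at (Cd68), 1419872_at (Csf1r), 1450792_at (Tyrobp), 1450430_at (Mrc1), 1419144_at (Cd163), 1417381_at (C1qa), 1437726_x_at (C1qb), 1417268_at (Cd14), 1423547_at (Lyz2) and 1426808_at (Lgals3). Csf1r and C1qb had 3 probe sets each and the others 1. All 10 markers were found this way among 9607 genes tested, and all 10 passed the filter on dim probe sets, a log2 value above 5 in at least 4 arrays. The groups were 4 arrays labelled TG, from mice transgenic for CHF1/Hey2, and 4 arrays labelled WT, from wild-type mice. CHF1/Hey2 represses transcription and belongs to the hairy-related proteins, and the mlc2v promoter drove the transgene in heart muscle, so the labels place no transgene in macrophages. All 8 mice were males on the FVB background, aged 8 to 12 weeks. All had ascending aortic banding for 1 week, so no unbanded heart stands beside them. RNA came from whole ventricle and not from sorted cells, so fewer macrophages and less RNA per macrophage cannot be told apart.

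Macrophages of the heart comprise resident cells, which settle early in life and renew locally, and cells derived from blood monocytes, which enter after injury or load. They clear debris, present antigen and signal to fibroblasts and vessels. Mrc1 (the mannose receptor CD206), Cd163 (the scavenger receptor for haemoglobin bound to haptoglobin) and C1qa and C1qb (chains of the complement recognition molecule C1q) are commonly read as resident markers. Cd14 (the co-receptor for bacterial lipopolysaccharide), Lyz2 (lysozyme M) and Lgals3 (galectin-3, a galactose-binding lectin) are read here as inflammatory or monocyte markers, although resident macrophages also make Lyz2. Cd68 (a lysosomal glycoprotein), Csf1r (the receptor of colony stimulating factor 1) and Tyrobp (the adaptor DAP12, which couples surface receptors to the kinase Syk) mark macrophages of both kinds.

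Some facts of the whole series bear on every result. TG_2 correlated with the other 7 arrays at 0.788 to 0.840 across genes, and in it 3572 genes (37.2%) lay over 1 log2 unit away from the median of the other 7. In TG_3 there were 891 such genes (9.27%), and in each of the other 6 arrays between 72 and 149. Hey2 had values of 5.87, 5.70, 6.26 and 6.02 in TG_1 to TG_4, against 5.89, 5.96, 5.68 and 6.76 in WT_1 to WT_4, so the TG arrays held no excess of it. Whether its probe set reads the transgene is not given, and TG and WT are used below as the labels of the arrays. The difference between the 3′ and 5′ control probe sets of beta-actin was 0.62 in TG_2 and between 0.78 and 1.21 in the other 7 arrays. For Gapdh it was -0.27 in TG_2, inside the range of -0.28 to -0.11 over the other 7 arrays.

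Sequences upstream of the transcription start were matched for 6 of the 10 markers (Cd68, Mrc1, Cd163, C1qb, Lyz2 and Lgals3) in RefSeq (build GRCm38.p6). The letters GAGGAA, the core of many sites bound by the myeloid factor PU.1, were searched on both strands, where the other strand reads TTCCTC, and no match overlapped another. They occurred in 3 of the 6 windows of 250 bases before the start, and in 23.3% of all 32851 windows of that length. A pair of genes that varied with most of the markers (Cd68 and C1qb) and a pair that did not (Mrc1 and Cd163) are shown, 5′ to 3′ on the strand of the gene, with matches in capitals. They lie at chr11:69666171-69666420 (minus strand, Cd68), chr4:136886201-136886450 (minus strand, C1qb), chr2:14229164-14229413 (plus strand, Mrc1) and chr6:124304401-124304650 (plus strand, Cd163).
Cd68: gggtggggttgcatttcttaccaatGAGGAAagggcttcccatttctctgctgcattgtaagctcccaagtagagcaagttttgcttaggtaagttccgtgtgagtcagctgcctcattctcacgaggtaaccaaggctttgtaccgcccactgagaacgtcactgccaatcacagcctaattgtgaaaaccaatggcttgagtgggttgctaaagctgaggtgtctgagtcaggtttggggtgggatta
C1qb: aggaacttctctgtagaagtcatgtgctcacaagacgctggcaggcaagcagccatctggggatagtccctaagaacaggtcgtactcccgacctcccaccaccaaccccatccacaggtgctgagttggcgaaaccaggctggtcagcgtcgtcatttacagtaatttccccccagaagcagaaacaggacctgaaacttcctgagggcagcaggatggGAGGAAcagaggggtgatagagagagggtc
Mrc1: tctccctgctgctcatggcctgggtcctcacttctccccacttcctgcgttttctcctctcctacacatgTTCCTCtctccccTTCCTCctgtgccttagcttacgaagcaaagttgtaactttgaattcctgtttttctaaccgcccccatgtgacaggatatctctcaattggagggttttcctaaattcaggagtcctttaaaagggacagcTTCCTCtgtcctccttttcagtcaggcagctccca
Cd163: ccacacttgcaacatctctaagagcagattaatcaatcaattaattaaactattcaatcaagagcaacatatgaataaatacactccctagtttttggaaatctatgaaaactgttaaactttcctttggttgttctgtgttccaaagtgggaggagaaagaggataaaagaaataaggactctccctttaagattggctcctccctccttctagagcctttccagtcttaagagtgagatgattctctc
Cd68 held 1 match and C1qb held 1, at 225 and 30 bases before the start. Mrc1 held 3, at 180, 167 and 35 bases, and Cd163, Lyz2 and Lgals3 held 0. The presence of the letters thus did not follow the split of the genes by their variation over arrays, and a match is a description of the sequence only.

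The comparison of banded TG with banded WT ventricles addressed whether CHF1/Hey2 in heart muscle alters gene expression under pressure load, read here through the macrophage markers. No marker differed between the groups beyond the spread between mice. With limma and Benjamini-Hochberg adjustment over all 9607 genes, 0 of 10 markers passed at 0.05, as did 0% of all genes. With an unadjusted limma p under 0.05 stood 0 of 10 markers and 1.59% of all genes. The TG and WT values overlapped for every marker, whereas they did not overlap for 2.48% of all genes. The TG mean was lower for 6 markers and higher for 4, where 43% of all genes were lower. The median difference over the 10 markers was -0.08 on the log2 scale, beside 0.06 over all genes. Without TG_3, or without both TG_2 and TG_3, 3 markers had a lower TG mean, and without TG_2, 9 did. The count also moved with WT arrays, to 9 without WT_4 and 4 without WT_1.

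The values moved with single mice and not with the groups. TG_2 held the highest of the 8 values for 7 of the 10 markers (Cd68, Csf1r, Tyrobp, C1qa, C1qb, Lyz2 and Lgals3), and 46.8% of all genes were also highest there. TG_3 held the lowest value for 7 markers (Csf1r, Tyrobp, C1qa, C1qb, Cd14, Lyz2 and Lgals3), against 23.5% of all genes. In TG_3, 6 markers lay over 1 log2 unit below the WT mean, which held for 6.26% of all genes. In TG_2, 5 markers lay over 1 log2 unit above the WT mean and 2 lay over 1 unit below it, against 17.8% and 20.5% of all genes. Other cell type lists also shifted in these arrays. In TG_2 the median endothelial marker lay at 0.78 and the median smooth muscle and pericyte marker at 0.91 from the WT mean, and in TG_3 the median fibroblast marker lay at -1.44. The medians over all genes were 0.29 in TG_2 and -0.02 in TG_3. The lists were not uniform in TG_2, where 2 of 8 endothelial and 2 of 6 smooth muscle and pericyte markers were lowest. Among these were Fabp4 at -0.79 and Rgs5 at -1.61. Cardiomyocyte markers had medians of -0.07 in TG_2 and 0.06 in TG_3. Even so, 5 of 9 were lowest in TG_2, with Pln at -1.52, where 31% of all genes were lowest. The part of these shifts in the macrophage values was not tested.

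**Figure D1:**
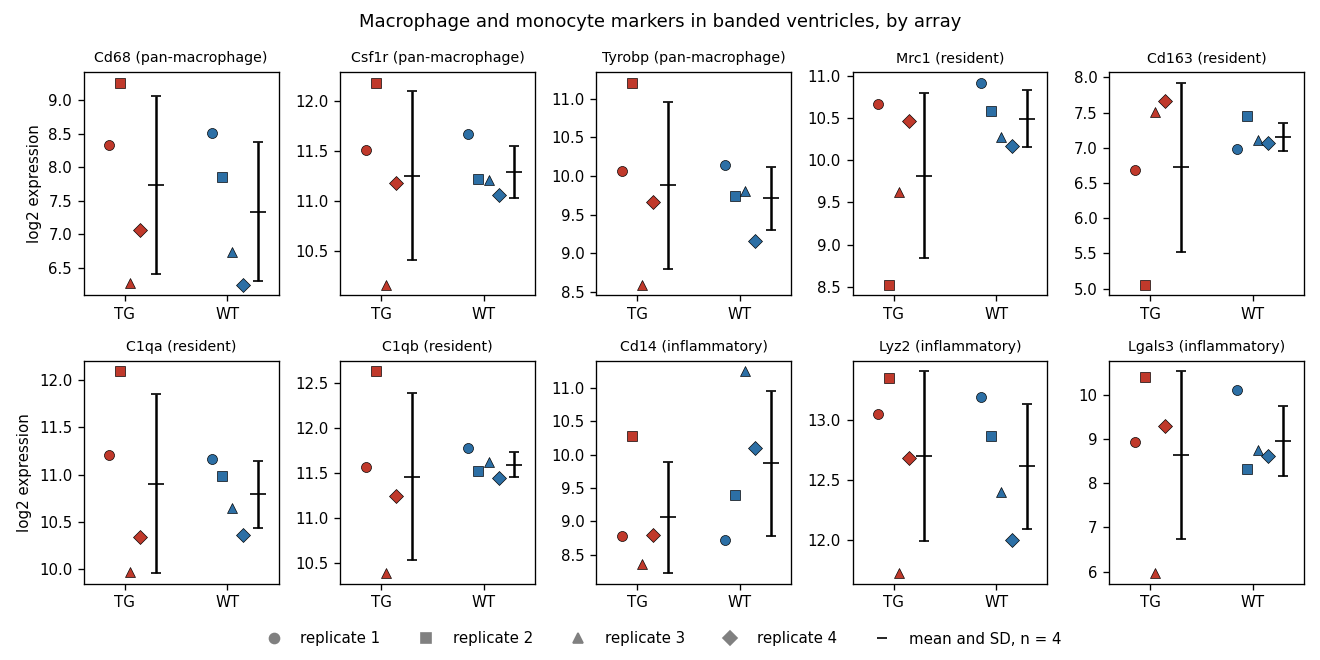
Log2 expression of the 10 markers (vertical axis of each panel, scaled per gene) in TG arrays on the left and WT arrays on the right. Symbols give the replicate and bars the mean and SD of 4 arrays. The square of TG_2 lies on top in 7 panels and the triangle of TG_3 lies lowest in 7.

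The markers of all macrophages are taken first. Cd68 had log2 values of 8.33, 9.26, 6.27 and 7.06 in TG_1 to TG_4 and of 8.51, 7.85, 6.73 and 6.24 in WT_1 to WT_4. The WT mice alone covered a 4.81-fold range, and the TG mice a 7.91-fold range. The means were 7.73 ± 1.32 in TG and 7.33 ± 1.03 in WT (SD, n = 4 each), and they differed by 0.40 (95% confidence interval -1.23 to 2.02; limma adjusted p = 0.851). Without TG_2 it was -0.11, opposite in sign.

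Csf1r, whose signalling macrophages need for survival, had values of 11.51, 12.19, 10.16 and 11.18 in TG_1 to TG_4, against 11.67, 11.22, 11.21 and 11.06 in WT_1 to WT_4. The WT arrays lay close together, and TG_2 and TG_3 lay outside their range on opposite sides. The means were 11.26 ± 0.84 in TG and 11.29 ± 0.26 in WT (SD, n = 4 each), and they differed by -0.03 (95% confidence interval -0.93 to 0.86; limma adjusted p = 0.980). Without TG_3 it was 0.33. The other 2 probe sets of Csf1r showed the same extremes, at 1.17 and 1.22 from the WT mean in TG_2 and at -1.18 and -0.72 from it in TG_3.

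Tyrobp had values of 10.07, 11.21, 8.59 and 9.66 in TG_1 to TG_4, against 10.14, 9.74, 9.81 and 9.16 in WT_1 to WT_4. TG_2 and TG_3 again lay above and below all WT arrays. The difference was 0.17 (95% confidence interval -0.98 to 1.31; limma adjusted p = 0.904), or -0.27 without TG_2 and 0.60 without TG_3. On the mean of Cd68, Csf1r and Tyrobp, the arrays lay at 0.52, 1.44, -1.11 and -0.15 from the WT mean in TG_1 to TG_4 and at 0.66, 0.16, -0.20 and -0.63 in WT_1 to WT_4.

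Of the resident markers, the C1q chains followed this pattern. C1qa had values of 11.21, 12.10, 9.97 and 10.34 in TG_1 to TG_4, against 11.17, 10.99, 10.65 and 10.36 in WT_1 to WT_4. TG_1 lay with the highest WT arrays and TG_4 with the lowest. The difference was 0.12 (95% confidence interval -0.90 to 1.13; limma adjusted p = 0.924), and -0.28 without TG_2.

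C1qb had values of 11.57, 12.63, 10.39 and 11.25 in TG_1 to TG_4, against 11.78, 11.52, 11.62 and 11.45 in WT_1 to WT_4. The WT arrays spanned 1.25-fold and the TG arrays 4.71-fold. The difference was -0.13 (95% confidence interval -1.07 to 0.81; limma adjusted p = 0.906), and 0.22 without TG_3. The kept probe set carries the suffix _x_at, which marks probes that may also read related sequences, and a C1qb probe set without it differed by 0.12, with 11.79 in TG_2 and 9.34 in TG_3. C1qc, the remaining chain of C1q, was 9.82, 10.39, 8.41 and 9.17 in TG_1 to TG_4 and 9.74, 9.53, 9.33 and 9.01 in WT_1 to WT_4, again with TG_2 highest and TG_3 lowest.

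Mrc1 and Cd163 went the other way in TG_2. Mrc1 had values of 10.66, 8.52, 9.62 and 10.47 in TG_1 to TG_4, against 10.92, 10.58, 10.28 and 10.17 in WT_1 to WT_4. Both TG_2 and TG_3 lay below every WT array, while TG_1 and TG_4 lay within the WT range. The means were 9.82 ± 0.98 in TG and 10.49 ± 0.34 in WT (SD, n = 4 each), and they differed by -0.67 (95% confidence interval -1.70 to 0.36; limma adjusted p = 0.813). Without TG_2 it was -0.24, and without both TG_2 and TG_3 it was 0.07.

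Cd163 had values of 6.68, 5.05, 7.51 and 7.67 in TG_1 to TG_4, against 6.98, 7.45, 7.11 and 7.07 in WT_1 to WT_4. TG_2 was the lowest by 1.63 log2 units and lay close to the filter level of 5, where differences may be compressed. TG_3 and TG_4, by contrast, lay above all WT arrays, so Cd163 was the only marker of the 10 that TG_3 did not hold below the WT mean. The difference was -0.43 (95% confidence interval -1.62 to 0.77; limma adjusted p = 0.814), and 0.13 without TG_2. Mrc1 and Cd163 were the 2 markers lowest in TG_2, where 31% of all genes were lowest.

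**Figure D2:**
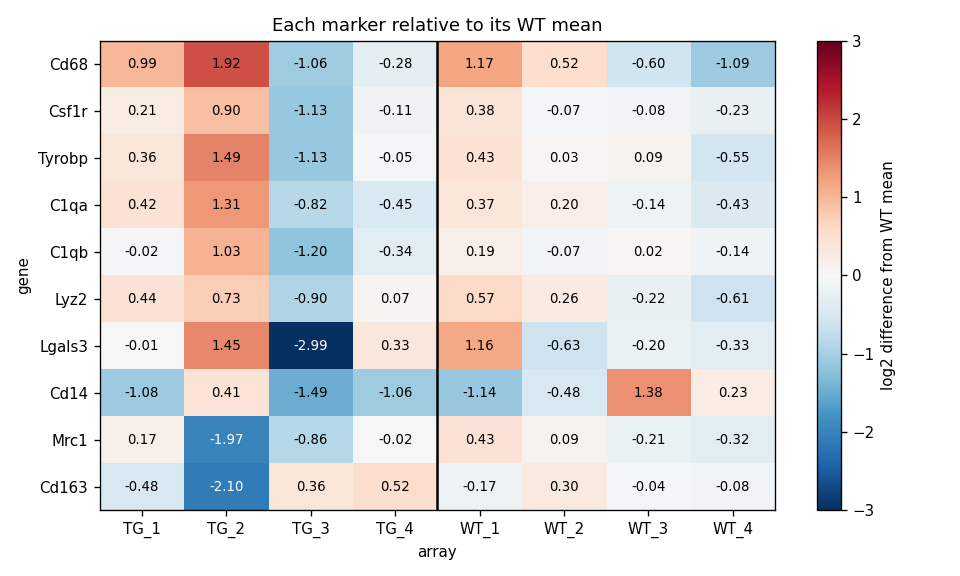
Log2 difference of each marker (rows) from its own WT mean in each array (columns, TG left of the line and WT right of it), with red above and blue below. In TG_2 the first 8 genes are above 0 while Mrc1 and Cd163 lie at -1.97 and -2.10, and in TG_3 only Cd163 is above 0.

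The markers were also set against Csf1r within each array. In TG_2 this restates the split and widens it, since Csf1r itself lay 0.90 above its WT mean there. Relative to the WT mean, the Mrc1 difference less the Csf1r difference was -2.87 in TG_2 and lay between -0.13 and 0.27 in the other 7 arrays. For Cd163 it was -3.00 in TG_2 and between -0.69 and 1.49 in the other 7. For C1qb it was 0.14 in TG_2 and between -0.24 and 0.10 in the others. Cd68, Tyrobp and C1qa also lay above their range in the other 7 arrays, at 1.03, 0.60 and 0.41 in TG_2. Cd14, Lyz2 and Lgals3 lay inside theirs. Mrc1 and Cd163 were thus not the only markers to leave their range, but they were the ones that fell below it. Mrc1 was thus lower relative to Csf1r in 1 of 8 mice and stayed within 0.27 log2 units of it in the rest. TG_2 is the array that stood apart over all genes, and the part of that in the Mrc1 and Cd163 values was not tested.

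The inflammatory markers did not form 1 pattern either. Lyz2 had values of 13.05, 13.35, 11.72 and 12.68 in TG_1 to TG_4, against 13.19, 12.87, 12.40 and 12.00 in WT_1 to WT_4. Like the C1q chains, it was highest in TG_2 and lowest in TG_3. The difference was 0.09 (95% confidence interval -0.80 to 0.98; limma adjusted p = 0.933), and its sign turned without TG_1, TG_2 or WT_4, at -0.03, -0.13 and -0.12. Mice also carry Lyz1, a close relative, and whether this probe set reads it was not tested.

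Lgals3 had values of 8.94, 10.39, 5.96 and 9.28 in TG_1 to TG_4, against 10.11, 8.32, 8.75 and 8.62 in WT_1 to WT_4. TG_3 was 2.36 log2 units below the next array, which made the TG range 21.7-fold. Lgals3 is also made by fibroblasts, and the median of 8 fibroblast markers lay at -1.44 from the WT mean in TG_3, with Col1a1 at 10.44 there and at least 13.59 in the other 7 arrays. These markers fell unevenly in TG_3, with Col1a1 at -3.66 and Postn at -3.50 but Pdgfra at -0.68 from the WT mean. The group difference of Lgals3 was -0.31 (95% confidence interval -2.29 to 1.67; limma adjusted p = 0.900), and 0.59 without TG_3 and 0.08 without WT_1. The part of fibroblast content in the Lgals3 value was not tested.

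Cd14 differed from most other markers in the WT mice. It had values of 8.78, 10.28, 8.37 and 8.80 in TG_1 to TG_4, against 8.73, 9.39, 11.25 and 10.10 in WT_1 to WT_4. WT_3, the highest array, and WT_1, the lowest of the WT arrays, differed 5.73-fold, whereas WT_1 was the highest WT array for 8 of the other 9 markers. Cd163, the remaining marker, was also lowest among the WT arrays in WT_1, but highest among them in WT_2. For Cd14 the means were 9.06 ± 0.84 in TG and 9.87 ± 1.08 in WT (SD, n = 4 each). They differed by -0.81 (95% confidence interval -2.14 to 0.53; limma adjusted p = 0.813). It was the largest difference among the 10 markers, and it was -0.35 without WT_3, -1.21 without TG_2 and -1.07 without both TG_2 and TG_3. The sign was kept in all 18 alternatives (adjusted p between 0.218 and 1.00).

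Of the 3 measured markers of neutrophils, another cell type that can carry CD14, S100a8 and S100a9 were highest in the WT arrays where Cd14 was, and Csf3r was not. S100a8, a subunit of calprotectin, was 5.28, 7.33, 6.45 and 6.90 in TG_1 to TG_4 and 5.17, 6.52, 10 and 7.99 in WT_1 to WT_4. S100a9, the other subunit, was 4.82, 7.20, 6.73 and 6.98 in TG_1 to TG_4 and 5.09, 6.76, 9.91 and 8.06 in WT_1 to WT_4. Both were highest in WT_3, then in WT_4, and lowest in TG_1 and WT_1, and among the WT arrays Cd14 had the same order. Csf3r, the receptor of granulocyte colony stimulating factor, was 5.29, 5.51, 4.83 and 5.32 in TG_1 to TG_4 and 5.49, 5.33, 5.33 and 5.32 in WT_1 to WT_4. It was nearly level over the WT arrays and highest among them in WT_1, where Cd14 was lowest. The list of 10 neutrophil markers had 3 measured members, whose mean level ranged from 5.13 to 6.68 over TG arrays and from 5.25 to 8.42 over WT arrays. The granule genes Mpo, Ngp, Camp and Elane of the list lay at 2.39 or less in every array, and Cxcr2 lay at 2.79 or less. The part of neutrophils in the Cd14 values was not tested.

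**Figure D3:**
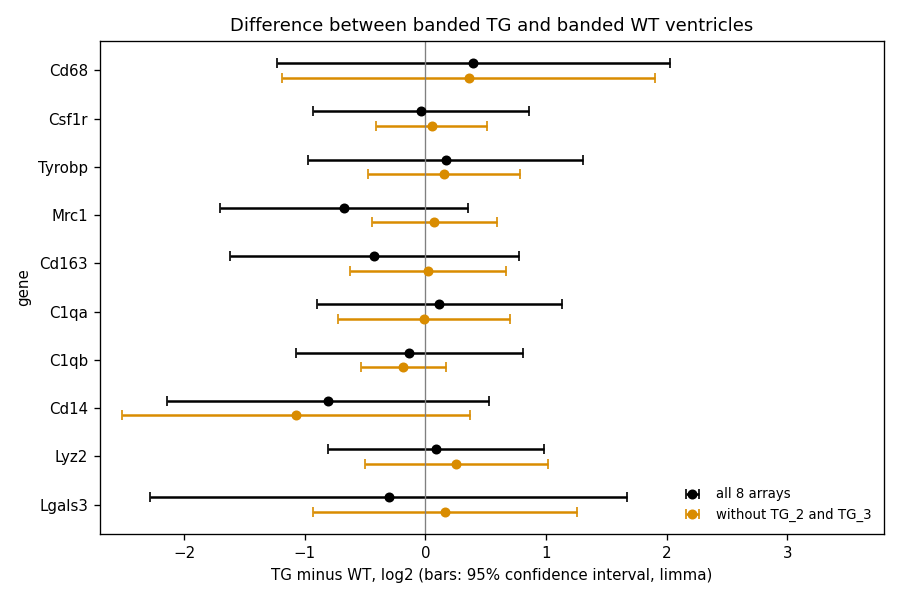
Difference of TG minus WT in log2 units (horizontal axis) for the 10 markers (rows), with 95% confidence intervals from limma. Black points use all 8 arrays and orange points leave out TG_2 and TG_3. Every interval covers 0, and Mrc1 stands at -0.67 with all 8 arrays and at 0.07 without TG_2 and TG_3.

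The resident and inflammatory sets were then compared within each array. The mean of Mrc1, Cd163, C1qa and C1qb less the mean of Cd14, Lyz2 and Lgals3, each gene relative to its WT mean, was 0.24, -1.30, 1.16 and 0.15 in TG_1 to TG_4 and 0.01, 0.41, -0.41 and -0.01 in WT_1 to WT_4. TG_2 leaned to the inflammatory set and TG_3 to the resident set, each further than any WT array. Over the groups the balance averaged 0.06 ± 1.02 in TG and 0.00 ± 0.34 in WT (SD, n = 4 each), a description with no test. It was 0.52 without TG_2, -0.30 without TG_3 and 0.19 without both.

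The 2 sets were not uniform inside. In TG_2 the resident mean of -0.43 combined 1.17 for the C1q chains with -2.04 for Mrc1 and Cd163, whereas the inflammatory mean was 0.86. In TG_3 the resident mean was -0.63 and the inflammatory mean -1.79, of which Lgals3 alone contributed a value of -2.99. With the C1q chains alone as resident set the balance was 0.31 in TG_2 and 0.78 in TG_3, beside -0.38 to 0.35 in WT. With Lgals3 left out of the inflammatory set it was -1.01 in TG_2 and 0.56 in TG_3, beside -0.68 to 0.49 in WT. In the first, TG_2 thus lay inside the WT range. In the second, TG_3 lay above all WT arrays but was smaller in size than WT_3, at -0.68. Both versions were chosen after the values were seen.

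**Figure D4:**
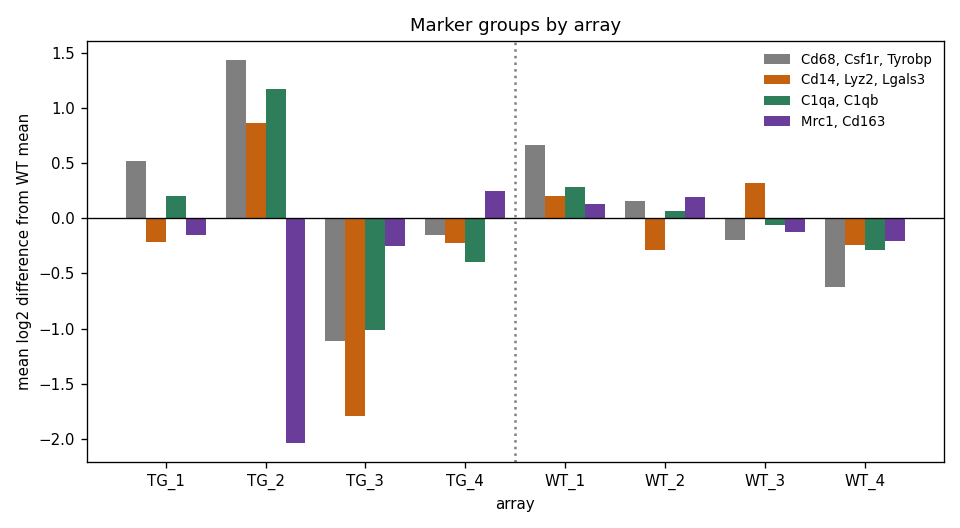
Mean log2 difference from the WT mean (vertical axis) of 4 sets of markers in each array, with the TG arrays left of the dotted line. In TG_2 the purple bar of Mrc1 and Cd163 stands at -2.04 while the other 3 sets are at 0.86 or above, and in TG_3 all 4 sets are below 0.

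Differences between mice were also present among the 6 arrays that resembled each other. Without TG_2 and TG_3, the 2 highest arrays were TG_1 and WT_1 for 5 of the 7 markers that were highest in TG_2 (Cd68, Csf1r, Tyrobp, C1qa and Lyz2), and WT_4 was lowest for 4 of the 7. Mrc1, which was lowest in TG_2, also had TG_1 and WT_1 highest and WT_4 lowest, so this order was not particular to the 7. Its share over all genes was not counted, but TG_1 and WT_1 were also the most alike of these arrays over all genes, correlating at 0.992. Among these 6 arrays Cd68 covered 4.81-fold, Lgals3 3.45-fold, Lyz2 2.28-fold and Csf1r 1.52-fold. In the WT mice alone, 4 of 10 markers spanned over 1 log2 unit (Cd68, Cd14, Lyz2 and Lgals3), against 7.02% of all genes.

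Other genes of the myeloid lineage were read from lists. Of 16 general myeloid genes, 13 were measured, 6 with a higher and 7 with a lower TG mean, and 0 passed (limma, adjusted over all genes, where 0% passed). TG_3 was the lowest array for 12 of the 13 and TG_2 the highest for 8, beside 23.5% and 46.8% of all genes. Laptm5, a lysosomal membrane protein of blood cells, was 10.10, 11.33, 8.43 and 9.85 in TG_1 to TG_4 and 10.19, 9.83, 10.12 and 9.95 in WT_1 to WT_4, a pattern like that of Tyrobp. Ptprc, the leukocyte common antigen CD45, was 8.80, 5.91, 7.42 and 8.47 in TG_1 to TG_4 and 8.95, 8.62, 8.46 and 8.46 in WT_1 to WT_4, lowest in TG_2 like Mrc1. The median of the list lay at 0.39, 1.04, -1.20 and -0.15 from the WT mean in TG_1 to TG_4.

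Among 18 further genes of tissue-resident macrophages, 16 were measured, 7 with a higher and 9 with a lower TG mean, and 0 passed, with a median difference of -0.01. In TG_2, 8 of the 16 had their highest value and 5 their lowest, shares near those of all genes (46.8% and 31%). The 5 lowest there were Lyve1 (a hyaluronan receptor), F13a1 (a coagulation factor subunit), Mertk (a receptor for the uptake of dying cells), Maf (a transcription factor) and Igf1 (a growth factor). They lay at -2.44, -0.49, -1.30, -2.15 and -3.07 from the WT mean in TG_2. Of the 8 that were highest in TG_2, Cbr2 and Fcgrt both lay at 1.27 above the WT mean. Igf1 and Lyve1 are also expressed by other cells of the heart. Lyve1 was not low in TG_3, at 0.78 above the WT mean, as was seen for Cd163. Timd4, a receptor of long-lived resident macrophages, lay at 2.16 or less in every array and could not be read.

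The list of inflammatory and recruited monocyte genes was mostly below the filter. Of its 18 genes, 5 were measured, 2 with a higher and 3 with a lower TG mean, and 0 passed. Fcgr1, the high-affinity receptor for IgG, was 6.68, 8.24, 4.14 and 6.19 in TG_1 to TG_4 and 6.95, 5.87, 5.41 and 4.87 in WT_1 to WT_4, highest in TG_2 and lowest in TG_3. Ccr2, the chemokine receptor of recruited monocytes, lay between 5.61 and 5.97 in TG and between 5.79 and 5.97 in WT, close to the filter level, and showed no such extremes. Msr1 was lowest in TG_2, at -1.21 from the WT mean, opposite to Fcgr1. Il1b and Ccl2 lay at 0.06 and 0.16 from the WT mean in TG_2. Tnf, Nos2, Arg1 and Chil3 lay at 3.93 or less in every array.

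Partners of the markers were read as well. Csf1, a ligand of the Csf1r receptor, was 9.0, 9.50, 8.43 and 8.38 in TG_1 to TG_4 and 8.62, 8.89, 8.11 and 7.90 in WT_1 to WT_4, a difference of 0.45 (limma adjusted p = 0.813), and Il34, the other ligand, was below the filter. Syk, the kinase downstream of Tyrobp, differed by -0.06 (limma adjusted p = 0.924), and of the 8 genes in that list 7 were below the filter. Of the CD14 and toll-like receptor pathway 6 of 9 genes were measured, 5 with a higher TG mean and 0 passing. Tlr4, the receptor that signals for CD14, was 8.59, 6.21, 8.91 and 9.55 in TG_1 to TG_4 and 8.96, 9.51, 9.45 and 9.50 in WT_1 to WT_4, lowest in TG_2 although Cd14 was not. Of the complement list 8 of 14 were measured, 5 with a higher TG mean and 0 passing, and C1ra, a protease of the C1 complex, differed by 0.36 (limma adjusted p = 0.813).

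**Figure D5:**
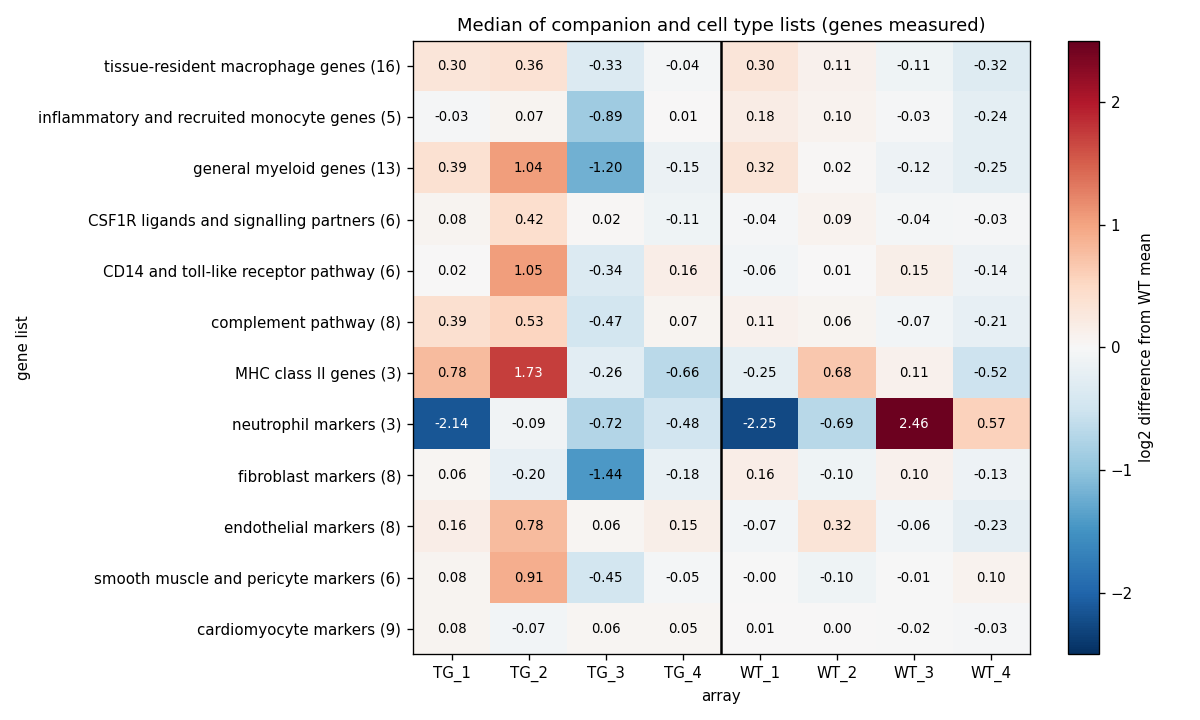
Median log2 difference from the WT mean for lists of related genes and of other cell types (rows, number of measured genes in brackets) in each array (columns, TG left of the line). General myeloid genes stand at 1.04 in TG_2 and -1.20 in TG_3, and neutrophil markers at 2.46 in WT_3, while cardiomyocyte markers stay between -0.07 and 0.08.

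The 5 genes outside the markers whose differences from the WT mean lay nearest to the average of the 10 markers were Endod1, Anxa5, Crtap, Apoe and Prkcd, out of 7323 genes with a mean log2 value above 7. Likeness was the root mean square distance over the 8 arrays, which was 0.09 to 0.15 for these genes and had a median of 0.56 over all 7323. Apoe, an apolipoprotein that macrophages secrete, lay at 0.36, 0.69, -0.92 and -0.23 in TG_1 to TG_4 and at 0.47, 0.03, -0.13 and -0.37 in WT_1 to WT_4. Of the markers themselves, Csf1r was nearest to their average, at 0.15, and Cd163 was farthest, at 1.13.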

How the data were processed

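The authors deposited log2 expression values of Affymetrix mouse genome arrays, 1 per mouse, and the submitters' processing notes name GCRMA, which corrects background by probe sequence, normalizes arrays to each other and summarizes probe sets. The version was not stated. GCRMA pulls dim probe sets together near the bottom of the scale. The deposited log2 values of 45101 probe sets were used unchanged, and 34958 probe sets carried 1 gene symbol. Probe sets above 5 in at least 4 arrays were kept, 1 per gene with the highest mean, which left 9607 genes. Differences are TG minus WT, fitted with limma 3.58.1 in R 4.3.3 over all 8 arrays with Benjamini-Hochberg adjustment at 0.05. The fit was tested on simulated data. Precision is limited by the number of arrays, which carry no counts. The members and lists were chosen with earlier results of these data known. The named genes were the 10 markers, up to 4 genes with the smallest p of each list, and the 5 nearest genes. C1qc, Laptm5, Ccr2, Lyve1, F13a1, Maf, Fabp4 and the genes named as below the filter were chosen after their values were seen. Alternatives changed the filter, scaling, model, probe set rule and arrays used. No scan date or other batch is given in the sources used here.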

Additional observations from a re-analysis of the deposited data

Results flagged for a closer look

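The highest or lowest array of a group of 4 was examined for a gap to the nearest other array above Dixon's 95% critical value, as a share of the group's range. Among 132 groups of 4 values (the markers, their summaries and the genes named by smallest p), 10 had such a gap, where chance gives about 1 in 20, and 0 of these 10 were among the 20 groups of the markers themselves. In 7 of the 10 the array was TG_2. It stood above the other TG arrays for Ticam1 at 6.99, Cd4 at 6.73, Pecam1 at 11.18 and Egfl7 at 10.55, and below them for Rgs5 at 11.69, Pln at 13.22 and Ryr2 at 13.49. Among the WT arrays, Tlr4 was low in WT_1 at 8.96, Myd88 was high in WT_2 at 7.26 and Csf3r was high in WT_1 at 5.49.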

How the results depend on the processing

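In each of the 18 alternatives 0 of the 10 markers passed. The number of genes passing was 0 in 17 of the 18 and 1 with array weights, Inmt, which encodes a methyltransferase, at 0.96 (adjusted p = 0.0373). There Cd68 and Cd14, at 1.11 and -1.32 (adjusted p = 0.298 and 0.218), had an unadjusted limma p under 0.05, as had 1529 genes in all against 153 in the comparison as reported. The number at that p was 363 without a filter (18193 genes tested), 102 with the filter at 7, and 34 to 541 with single arrays left out, with 34 without WT_3 and 43 without WT_4. The resident less inflammatory balance stayed within the spread between arrays, from -0.30 to 0.52 with single arrays left out, and so did the median marker difference, from -0.28 to 0.37. The sign of several differences turned. With array weights Csf1r, Mrc1 and Lgals3 stood at 0.194, 0.196 and 0.0400. With all probe sets of a gene averaged Csf1r stood at 0.0242, and without probe sets ending in _x_at or _s_at C1qb stood at 0.12. Without TG_2 and TG_3 together Csf1r, Mrc1, Cd163, C1qa and Lgals3 stood at 0.0512, 0.0741, 0.0206, -0.0127 and 0.161. With single arrays left out the ranges were -0.11 to 0.88 for Cd68, -0.34 to 0.33 for Csf1r, -0.27 to 0.60 for Tyrobp, -0.74 to 0.13 for Cd163, -0.28 to 0.43 for C1qa, -0.52 to 0.22 for C1qb, -0.13 to 0.42 for Lyz2 and -0.89 to 0.59 for Lgals3. The cause was not tested. The replicate numbers are not stated to pair mice. Deviations of same-numbered arrays from their group means correlated at 0.30, -0.01, -0.33 and 0.20 across genes, and with a replicate block 0 genes passed and 147 had an unadjusted limma p under 0.05. Signal near the level of 5 limits Cd163 in TG_2 and most recruited monocyte genes. No scanner files were used, so the background correction could not be varied.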

Other observations

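Genes of antigen presentation varied between mice in yet another way. The 3 measured genes of MHC class II, through which macrophages and dendritic cells show peptides to helper T cells, were highest in TG_2, as were 46.8% of all genes, and WT_2 and TG_1 came next. H2-Aa was 10.91, 11.66, 9.96 and 9.27 in TG_1 to TG_4 and 9.78, 10.68, 9.97 and 9.29 in WT_1 to WT_4. H2-Ab1 was 9.77, 11.24, 8.66 and 8.32 in TG_1 to TG_4 and 8.72, 9.67, 9.10 and 8.47 in WT_1 to WT_4. The invariant chain Cd74 was 11.70, 12.49, 10.78 and 10.32 in TG_1 to TG_4 and 10.78, 11.57, 11.23 and 10.55 in WT_1 to WT_4. WT_1, the WT array with the highest Cd68, thus lay below WT_2 and WT_3 for all 3 genes. The differences between the groups were 0.52, 0.51 and 0.29, and none passed (limma adjusted p = 0.813, 0.813 and 0.833).

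Lymphocyte and mast cell genes were mostly below the filter. Of 11 lymphocyte genes 1 was measured, Cd4, which some dendritic cells also carry, at 6.73 in TG_2 and between 5.29 and 5.60 in the other 7 arrays. Of 6 mast cell genes 0 passed the filter. Cpa3, Mcpt4 and Fcer1a lay at 2.32 or less in every array, whereas Kit lay between 4.62 and 5.31. Alas2, an enzyme of haem synthesis in red cell precursors, ranged from 5.67 to 8.63 over TG arrays and from 6.93 to 8.05 over WT arrays.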
